A study of Homo sapiens with 8 samples.

Results

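RNA levels of 10 genes of the cellular response to low oxygen were followed in the endothelial hybrid line EA.hy926 after deletion of the enhancer E2 or of its neighbour SE12313-b. The genes were the hypoxia-inducible factor (HIF) subunits HIF1A and EPAS1, the oxygen sensors EGLN1 and EGLN3, the HIF target genes ADM, NDRG1, BNIP3 and CA9, and the stanniocalcins STC1 and STC2. They were found by symbol among the 27945 genes of the deposited table, and for each symbol the transcript with the highest mean FPKM (fragments per kilobase of transcript, scaled to the reads of the library) over all 8 libraries was kept. That mean decided only which row stood for a gene and is not used as a result. Of the 10 genes, 8 were among the 13789 genes with enough reads to test, and EGLN3 and CA9 had an FPKM of 0 in every library.

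EA.hy926 is an established human line made by fusing umbilical vein endothelial cells with cells of the lung carcinoma line A549. All groups were this line, kept in high-glucose DMEM with fetal bovine serum, and no label names a hypoxic treatment. The control group had 2 libraries, the E2 knock-out (ΔE2) had 3 and the SE12313-b knock-out (ΔSE12313-b) had 3. Both elements belong to the super-enhancer SE12313 on chromosome 16, and SE12313-b, which was inactive in reporter assays, was deleted as the negative control. Each knock-out library came from a clonal line made with Cas9 ribonucleoprotein, and the control is not described as a clone. A change on deletion therefore cannot be told apart from an effect of cloning or Cas9 treatment that the clones share. With 3 clones for each deletion, differences between clones are also measured only roughly. Whether the control RNA came from cells that had also received guide RNAs is not stated, and neither is whether the 2 control libraries came from separate cultures. If they did not, the p values measure in part a technical spread.

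The libraries held 12067557 to 19101153 reads, of which 7801359 to 13371431 fell on genes. The labelled cell type was checked with marker lists. Of 10 endothelial markers 8 passed the filter on low values, and CLDN5 was at 0. The summed FPKM was 209 to 210 in the controls, 198 to 332 in ΔE2 and 189 to 259 in ΔSE12313-b. The sum hides changes of single markers in both directions. In ΔE2 ERG, PECAM1 and ESAM were higher (log2 fold change 1.25, 1.11 and 1.08), and VWF and EMCN, both low in level, were lower (-1.72 each). In ΔSE12313-b PECAM1 and ERG were higher (2.10 and 1.09) and VWF was lower (-1.80). Of 9 epithelial and lung markers only the keratins KRT7, KRT8 and KRT18 passed it, and CDH1 and NKX2-1 were at 0. The summed FPKM of these 9 was 361 to 363 in the controls, 1084 to 1210 in ΔE2 and 811 to 1069 in ΔSE12313-b, and the part of this difference in the results below was not tested. Of 8 fibroblast and smooth muscle markers only ACTA2 passed, with a summed FPKM of 5.17 to 6.66 in the controls, 0.701 to 2.05 in ΔE2 and 1.00 to 1.74 in ΔSE12313-b, and none of 4 blood cell markers did.

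HIF is a pair of proteins, an alpha subunit such as HIF-1α (from HIF1A) or HIF-2α (from EPAS1) and the constant partner ARNT. In normal oxygen, prolyl hydroxylases of the EGLN family mark the alpha subunit, the VHL protein binds it and the proteasome removes it, so HIF activity is set mostly at the level of protein. When oxygen falls the subunit persists, enters the nucleus and binds the core letters ACGTG or GCGTG near genes for oxygen supply, glucose use, pH and mitochondrial turnover. EPAS1 is the alpha subunit typical of endothelium.

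The HIF core motif was looked for in the promoters, because the genes are grouped by this factor, and in the deleted elements, because their loss is the treatment. RefSeq promoter entries (GRCh38.p14, 250 bases before to 50 after the start) were matched for 8 of the 10 genes, with 9 promoters in all. NDRG1 and STC1 had no entry. The letters ACGTG and GCGTG and, for the other strand, CACGT and CACGC occurred in 7 of the 9, against 61% of the promoters of genes tested and 48.4% of all 35116 promoters. The promoter of EGLN3 and 1 of 2 for HIF1A held none. Windows around the motif are shown on the strand of the gene with the motif in capitals.
HIF1A, chr14:61695299-61695323, + strand: gctgagagcgGCGTGggctggggtg
EPAS1, chr2:46297280-46297304, + strand: gcctgccggcGCGTGcccgcccaca
EGLN1, chr1:231422288-231422310, - strand: gccgtggtgtACGTGcagagcgc
ADM, chr11:10304962-10304986, + strand: gcaggagcgcGCGTGgctgaggaaa
BNIP3, chr10:131982052-131982076, - strand: ccgccccgcgCACGCgccgCACGTG
BNIP3, chr10:131982025-131982049, - strand: aCACGCacccCACGCccctgcgcac
CA9, chr9:35673900-35673924, + strand: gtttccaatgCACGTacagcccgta
STC2, chr5:173328635-173328659, - strand: cactcatacaCACGCACGCaaacgc
The motif began 13 bases before the start in EGLN1, 18 in CA9, 101 in ADM, 117 in EPAS1 and 204 in HIF1A. BNIP3 held 6 motif positions, counting CACGTG, which reads as the motif on both strands, as a pair, and STC2 held 3, of which 2 overlap. EGLN3 and CA9, both at 0 FPKM, thus differed in the motif, and CA9 held a match without detectable RNA.

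Both deleted elements also held the motif. E2 was taken as the 2502 bases between the cut sites predicted from its guides (GRCh37 chr16:77627894-77630395), and the deletions in the clones may differ from this by some bases. It held it at 4 positions, and SE12313-b (2517 bases, chr16:77602393-77604909) at 2. Windows of the same length along chromosome 16 held a median of 3, and 91.1% held at least 1. At least as many motifs as in E2 were found in 46.3% of these windows, and at least as many as in SE12313-b in 76.8%. The windows were not matched for GC content, which was 36.65% in E2 and 42.75% in SE12313-b. The 6 sites removed with the elements are shown on the + strand.
E2, chr16:77628701-77628725: agatttcatcCACGTtgtaaattgg
E2, chr16:77628768-77628792: gttgccttcaCACGTagctgcgtct
E2, chr16:77629268-77629292: tgataccagcCACGTattttctagc
E2, chr16:77630048-77630072: aatacacaaaACGTGtgctgttaag
SE12313-b, chr16:77603197-77603221: tgtgatgtggCACGTcatttgattt
SE12313-b, chr16:77604246-77604270: tgtgccatgaCACGCtgcaacatcc
A match of 5 letters is a description of the sequence and does not show binding. Binding itself was measured in umbilical vein endothelial cells. From those data the study reports a HIF-1α site in E2 and lists none for SE12313-b. It also reports that hypoxia further raised the reporter activity of E2 in these cells.

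The 10 genes did not move as a group. STC1 fell to between 1.68% and 7.57% of its control mean in the 6 clones, ADM rose in both deletions, and EGLN1 rose in both by less than 2-fold. The alpha subunits HIF1A and EPAS1 stayed within 2-fold of the control in every clone, as did NDRG1 and BNIP3. A differentially expressed gene (DEG) had an adjusted p under 0.05, by limma with Benjamini-Hochberg adjustment over all genes tested, and a change of at least 2-fold. STC1 is left out of the counts, since its fall was known when the genes were chosen. Of the other 7 genes tested 1, ADM, was a DEG in ΔE2, where 19.6% of all genes tested were DEGs, 11.2% higher and 8.36% lower. ADM was also the only DEG of the 7 in ΔSE12313-b, where the share of all genes was 22.6%, 14.7% higher and 7.83% lower. None of the 7 was a DEG between the deletions, where 4.23% of all genes were, 1.6% higher in ΔE2 and 2.63% lower.

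At an adjusted p under 0.05 with a change of any size, 3 of the 7 passed in each deletion and 4 between the deletions, where 54.1% (ΔE2), 59.4% (ΔSE12313-b) and 26% (between the deletions) of all genes tested did. In ΔE2 these were 2 higher and 1 lower, beside 34.7% and 19.4% of all genes, and in ΔSE12313-b 3 higher and 0 lower, beside 43% and 16.4%. Between the deletions all 4 were lower in ΔE2, as were 19.3% of all genes, with 6.69% higher. The ranges of the groups did not overlap for 5, 5 and 4 of the 7, against 73.5%, 75.3% and 40.8% of all genes. By direction these were 2 higher and 3 lower in ΔE2 (44.8% and 28.7% of all genes), 4 higher and 1 lower in ΔSE12313-b (51.5% and 23.8%), and 0 higher and 4 lower between the deletions (11% and 29.8%). These shares are those of a data set in which most genes differed between clones and control. The median log2 fold change of the 8 genes, STC1 included, was -0.33 in ΔE2, 0.12 in ΔSE12313-b and -0.51 between the deletions, beside medians of 0.14, 0.27 and -0.11 for all genes tested. A change against the control is therefore lower when read relative to the median gene than the fold changes given here. Between the deletions it is higher, since the median of all genes was negative there. Both deletions were set against the same 2 control libraries, so their values are given side by side and not as separate support. In bulk RNA fewer cells that express a gene and less RNA per cell cannot be told apart.

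**Figure D1:**
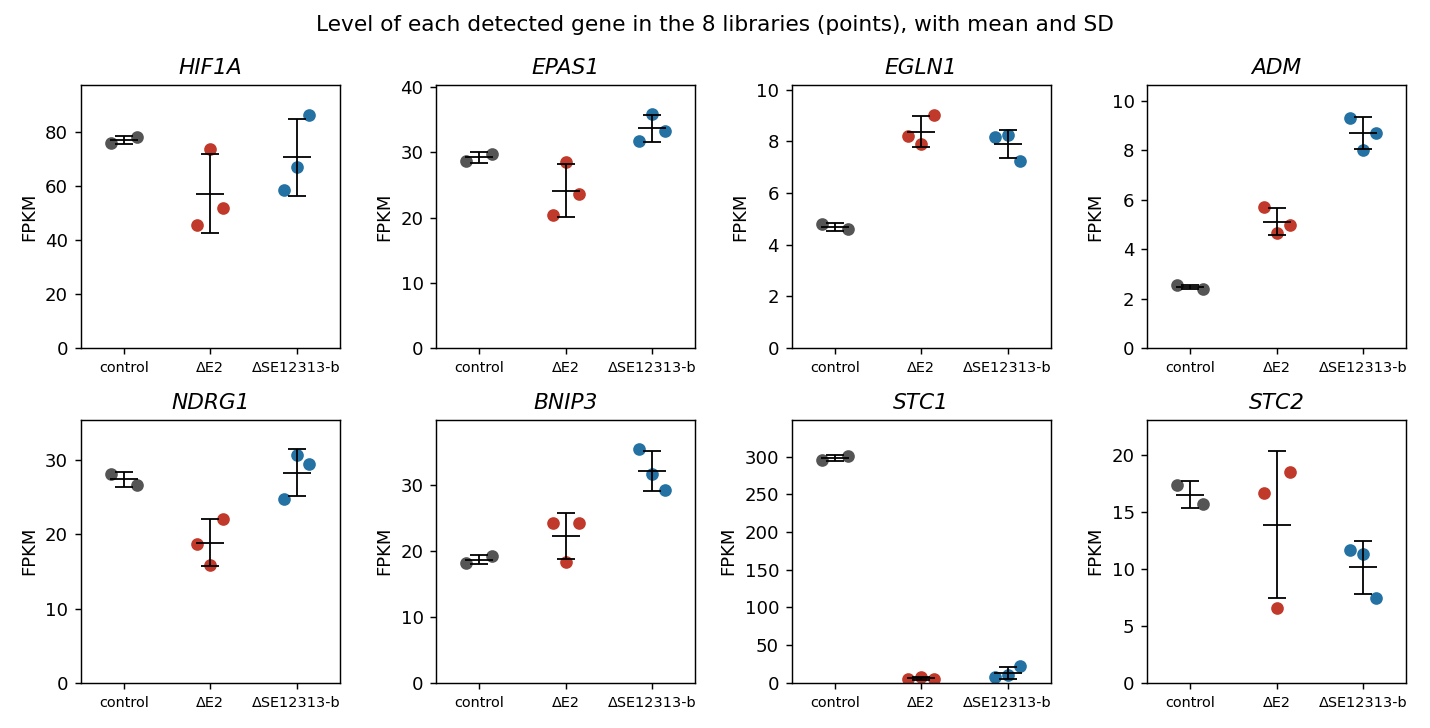
FPKM of the 8 detected genes (vertical axes from 0, a scale for each gene) in the control, ΔE2 and ΔSE12313-b libraries. Points are libraries, bars are means with SD (n = 2, 3 and 3). STC1 stood at 295 and 301 in the controls and at most at 22.6 in the clones, while ADM and EGLN1 were higher in all 6 clones than in both controls.

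HIF1A (NM_001530, GRCh37 chr14:62162119-62214977, + strand) had the second highest level of the 10 genes in the controls, 75.9 and 78.0 FPKM. In the ΔE2 clones it stood at 45.7, 73.5 and 51.9 FPKM, and in the ΔSE12313-b clones at 58.5, 67.0 and 86.3. All ΔE2 clones lay below both controls, replicate 2 only just, and the ΔSE12313-b clones lay on both sides. The log2 fold change was -0.46 (95% interval -0.96 to 0.04) in ΔE2 and -0.14 (-0.64 to 0.36) in ΔSE12313-b, with limma adjusted p values of 0.106 and 0.590. Neither passed the threshold, and the intervals leave room for a fall in ΔE2 of up to 0.96 on the log2 scale. Without ΔE2 replicate 2 the value was -0.66 (limma adjusted p = 0.0165), and with each library centred on the median gene it was -0.62 (limma adjusted p = 0.0418). Quantile normalization gave -0.80 in ΔE2 and -0.64 in ΔSE12313-b (limma adjusted p = 0.0152 and 0.0355). Noncoding genes of the opposite strand overlap HIF1A, namely HIF1A-AS1, HIF1A-AS2 and LOC105370526, with mean levels of 0.0334, 1.03 and 2.25 FPKM against 67.1 for HIF1A, and the use of strand in the counting is not stated.

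EPAS1 (NM_001430, chr2:46524541-46613842, + strand), which encodes HIF-2α, stood at 28.7 and 29.8 FPKM in the controls. In ΔE2 it was 20.4, 28.5 and 23.6 FPKM and in ΔSE12313-b 31.8, 35.9 and 33.3. Every ΔE2 clone lay below and every ΔSE12313-b clone above both controls. Against the control the log2 fold changes were -0.29 (95% interval -0.59 to 0.02, limma adjusted p = 0.0988) and 0.20 (-0.10 to 0.51, limma adjusted p = 0.217), so neither passed. In ΔE2 the threshold was passed without replicate 2 (-0.41, limma adjusted p = 0.0105), with the libraries centred (-0.44, limma adjusted p = 0.0194) and with quantile normalization (-0.59, limma adjusted p = 0.00820). The direct comparison of ΔE2 with ΔSE12313-b did, at -0.49 (standard error 0.12, limma adjusted p = 0.0197), or 1.4-fold lower. With the libraries centred it was -0.36 (limma adjusted p = 0.0587), and EPAS1 in ΔSE12313-b then stood at -0.09 against the control. The direct comparison also missed the threshold with quantile normalization (-0.36, limma adjusted p = 0.0815), without ΔE2 replicate 3 (-0.48, limma adjusted p = 0.0611) and without ΔSE12313-b replicate 2 (-0.44, limma adjusted p = 0.0588).

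The balance of the alpha subunits shifted little. FPKM are scaled by length, so the levels of both can be set beside each other, and HIF1A exceeded EPAS1 2.65-fold and 2.62-fold in the controls. After deletion the ratio was 2.24, 2.58 and 2.20 (ΔE2) or 1.84, 1.87 and 2.59 (ΔSE12313-b). ΔE2 replicate 2 and ΔSE12313-b replicate 3 were closest to the controls in this ratio.

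EGLN1 (NM_022051, chr1:231499497-231560790, - strand) encodes PHD2, the prolyl hydroxylase that in most cells sets HIF stability and whose gene is itself a HIF target. It had 4.81 and 4.59 FPKM in the controls, 8.20, 7.90 and 9.03 in ΔE2 and 8.17, 8.24 and 7.25 in ΔSE12313-b. All 6 clones exceeded both controls, and the ranges of the deletions overlapped. The rise was 1.76-fold in ΔE2 (log2 0.82, standard error 0.10, limma adjusted p = 0.000309) and 1.66-fold in ΔSE12313-b (log2 0.73, standard error 0.10, limma adjusted p = 0.000434), under the 2-fold limit for a DEG. Centred on the median gene, the log2 values were 0.66 and 0.44. The difference between the deletions was 0.09 (95% interval -0.12 to 0.29).

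EGLN3 (chr14:34393421-34420032, - strand), the hydroxylase PHD3, had 0 reads in each of the 8 libraries for both of its transcripts. A count of 0 allows up to 3 reads, which for EGLN3 is 0.0720 FPKM in the deepest library and 0.114 in the shallowest. CA9 (NM_001216, chr9:35673915-35681154, + strand), the cell surface carbonic anhydrase that is widely used as a tissue marker of hypoxia, also had 0 reads throughout, which allows 0.102 to 0.161 FPKM. These limits cover counting error only. Both genes are strong HIF targets in many cells, and no transcript of either was detected at this depth in control or deleted cells.

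ADM (NM_001124, chr11:10326527-10328949, + strand) encodes adrenomedullin, a peptide of endothelium that widens vessels and tightens the endothelial barrier, and is a classical HIF target. Its level was 2.54 and 2.41 FPKM in the controls, 5.72, 4.65 and 4.96 in ΔE2 and 9.30, 8.01 and 8.70 in ΔSE12313-b. The 3 groups did not overlap, with ΔSE12313-b highest. ADM rose 2.02-fold in ΔE2 (log2 1.01, standard error 0.12, limma adjusted p = 0.000247) and 3.41-fold in ΔSE12313-b (log2 1.77, standard error 0.12, limma adjusted p = 1.20e-05). The level in ΔE2 was lower than in ΔSE12313-b by a log2 value of -0.75 (standard error 0.10, limma adjusted p = 0.00233). The DEG call in ΔE2 rests on the 2-fold limit, since ADM fell below it in 5 of 19 alternatives, with a lowest value of 0.81. It stood at 0.86 with centred libraries, at 0.98 without control replicate 2 and at 0.93 without ΔE2 replicate 1. The others were a pseudocount of 1 and quantile normalization. The adjusted p of ADM stayed at 0.00459 or less by limma in all 19 alternatives. Relative to the median gene ADM was thus under 2-fold in ΔE2 and at 1.48 on the log2 scale in ΔSE12313-b.

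NDRG1 (NM_006096, chr8:134249414-134309547, - strand) encodes a cytoplasmic stress protein that rises with hypoxia and differentiation. It was at 28.2 and 26.7 FPKM in the controls, at 18.7, 15.8 and 22.1 in ΔE2 and at 24.7, 30.7 and 29.5 in ΔSE12313-b. The ΔE2 clones lay below all other libraries, and the ΔSE12313-b clones spanned the controls. In ΔE2 it fell by 0.55 on the log2 scale (standard error 0.15, limma adjusted p = 0.0147), and the same clones were lower than ΔSE12313-b by -0.59 (standard error 0.13, limma adjusted p = 0.0151). Without control replicate 1 or 2 the adjusted p against the control became 0.0904 or 0.0610 by limma. In ΔSE12313-b the value was 0.04 (95% interval -0.30 to 0.38), and -0.25 with the libraries centred. The 4 annotated transcripts of NDRG1 gave log2 ratios of group means from -0.55 to -0.53 in ΔE2, and they share most of their reads.

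BNIP3 (NM_004052, chr10:133781187-133795517, - strand) encodes a receptor on mitochondria for their removal by autophagy. It had 18.2 and 19.2 FPKM in the controls, 24.3, 18.3 and 24.3 in ΔE2 and 35.4, 31.7 and 29.3 in ΔSE12313-b. The ΔSE12313-b clones were above all other libraries, and ΔE2 replicate 2 lay between the controls. BNIP3 was 1.71-fold higher in ΔSE12313-b (log2 0.77, standard error 0.14, limma adjusted p = 0.00194) and at 0.24 in ΔE2 (95% interval -0.08 to 0.56, limma adjusted p = 0.181), with -0.53 between the deletions (limma adjusted p = 0.0178). Without ΔE2 replicate 2 the value in ΔE2 was 0.38 (limma adjusted p = 0.0172). The 406 genes tested on the same chromosome arm, 10q, had a median log2 fold change of 0.75 in ΔSE12313-b, so BNIP3 differed from its arm by 0.03. Between the deletions the median of 10q was -0.45. For the other detected genes the median of the arm lay within about 0.15 of that of all genes in every comparison. Centring lowered the value in ΔSE12313-b to 0.49 (limma adjusted p = 0.0202), and with quantile normalization it no longer passed the threshold (0.35, limma adjusted p = 0.0566). Between the deletions it missed the threshold with centred libraries (-0.40, limma adjusted p = 0.0569) and without ΔSE12313-b replicate 1 (-0.46, limma adjusted p = 0.0615).

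**Figure D2:**
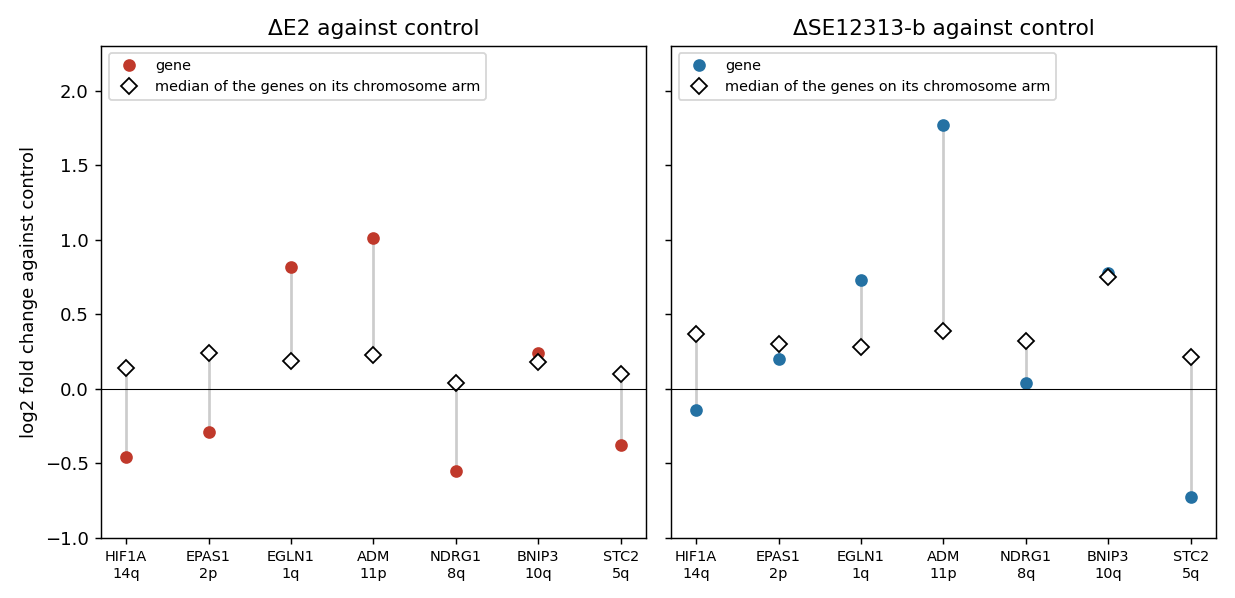
Log2 fold change of 7 detected genes (filled points) beside the median of the genes tested on the same chromosome arm (open diamonds), in ΔE2 (left) and ΔSE12313-b (right). BNIP3 coincides with the median of 10q in ΔSE12313-b (0.77 and 0.75), whereas ADM and EGLN1 stand above the medians of 11p and 1q in both deletions. STC1 is left out for its scale.

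STC1 (NM_003155, chr8:23699434-23712320, - strand) encodes stanniocalcin 1, a secreted glycoprotein that acts near its source on calcium and phosphate handling and on mitochondria. Its fall was known from earlier results when the genes were chosen, so its levels against the control are given as a description without a p value. It had 295 and 301 FPKM in the controls, 5.0, 7.74 and 5.08 after loss of E2, and 8.34, 9.84 and 22.6 after loss of SE12313-b. No clone came near a control, and ΔSE12313-b replicate 3 kept the most. The group means fell from 298 ± 4.26 (SD, n = 2) to 5.94 ± 1.56 (SD, n = 3) and 13.6 ± 7.82 (SD, n = 3), log2 fold changes of -5.66 and -4.59, or 50.4-fold and 24.1-fold lower. STC1 went from rank 135 in level among the genes tested to rank 7503 in ΔE2 and 4580 in ΔSE12313-b. Ordered by log2 fold change it was number 4 from the bottom in ΔE2 and number 14 in ΔSE12313-b.

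The direct comparison of the deletions gave -1.06 for STC1 (95% interval -1.88 to -0.25, limma adjusted p = 0.0593), although all ΔE2 clones were below all ΔSE12313-b clones. ΔSE12313-b replicate 3 decides the size of this difference. Without it the value was -0.63 (limma adjusted p = 0.0576). Without ΔSE12313-b replicate 1 it was -1.34 (limma adjusted p = 0.0416), and a test on reads recovered from the FPKM gave -1.07 (limma adjusted p = 0.0376), both of which would make STC1 a DEG.

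STC2 (NM_003714, chr5:172741726-172756506, - strand), the paralog, is induced by hypoxia and by stress of the endoplasmic reticulum and inhibits the protease PAPPA. It had 17.4 and 15.7 FPKM in the controls, 16.7, 6.58 and 18.5 in ΔE2 and 11.6, 11.3 and 7.50 in ΔSE12313-b. ΔE2 replicate 2 stood alone at 39.8% of the control mean, whereas the other ΔE2 clones were at 101% and 112%, and all ΔSE12313-b clones lay below both controls. The log2 fold changes were -0.38 (95% interval -1.34 to 0.58, limma adjusted p = 0.469) and -0.72 (-1.68 to 0.24, limma adjusted p = 0.167). With 1 clone this far off, a change of 2-fold in either deletion lies inside the intervals. Without ΔE2 replicate 2 the value in ΔE2 was 0.09, that in ΔSE12313-b stayed at -0.72 with a limma adjusted p of 0.0146, and the difference between the deletions was 0.81 (limma adjusted p = 0.0234).

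The order of the stanniocalcins turned in 4 of the 6 clones. STC1 exceeded STC2 17-fold and 19.2-fold in the controls. After deletion the ratio was 0.300, 1.18 and 0.275 (ΔE2) or 0.716, 0.871 and 3.01 (ΔSE12313-b). STC2 was the more abundant of the pair in 2 of 3 clones of each deletion.

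**Figure D3:**
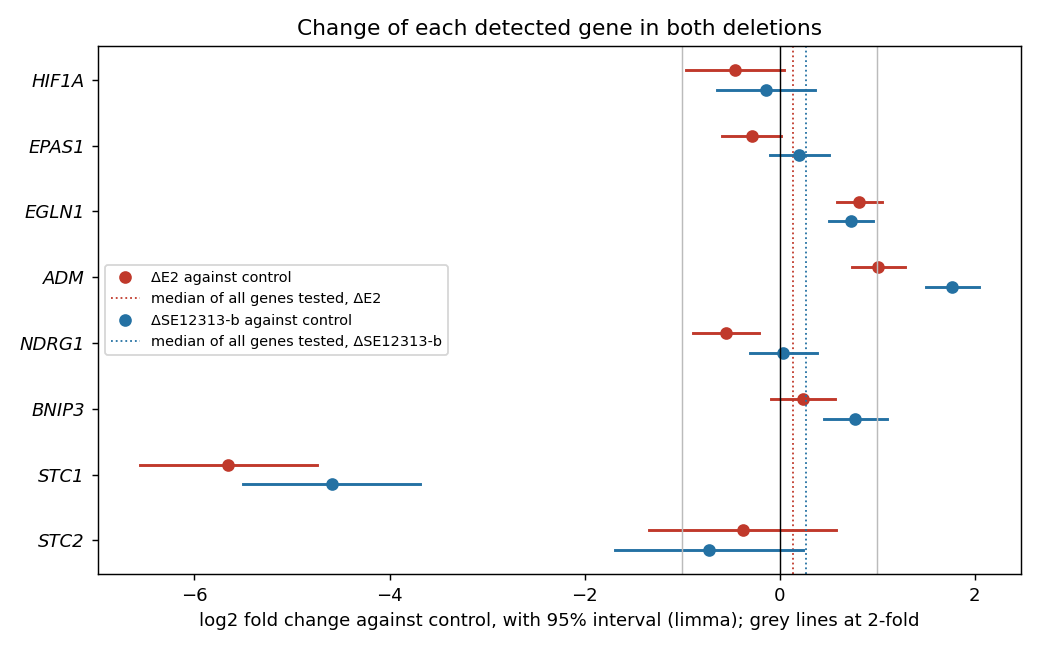
Log2 fold change of the 8 detected genes against the control (points) with 95% intervals from limma (lines), for ΔE2 in red and ΔSE12313-b in blue. Grey lines mark 2-fold and dotted lines the median of all genes tested (0.14 and 0.27). STC1 lies far to the left in both deletions, ADM to the right, and the intervals of HIF1A, EPAS1 and STC2 cross 0 in both. Those of STC1 are a description only, since its fall was known when the genes were chosen.

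Levels within the group can be ordered, since FPKM are per length. In the controls the order from the top was STC1, HIF1A, EPAS1, NDRG1, BNIP3, STC2, EGLN1 and ADM. The ranges of neighbours did not overlap there, the closest being EPAS1 and NDRG1 with means of 29.2 ± 0.783 and 27.4 ± 1.03 (SD, n = 2) and BNIP3 and STC2 with 18.7 ± 0.742 and 16.5 ± 1.20. In ΔE2 the order was HIF1A, EPAS1, BNIP3, NDRG1, STC2, EGLN1, STC1 and ADM, and the ranges of neighbours overlapped except between HIF1A and EPAS1 and between EGLN1 and STC1. In ΔSE12313-b it was HIF1A, EPAS1, BNIP3, NDRG1, STC1, STC2, ADM and EGLN1, with a gap only between HIF1A and EPAS1 and between NDRG1 and STC1.

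The clones of a deletion differed among themselves more than the controls did. The measure, highest over lowest, can only grow with the number of libraries, and there were 2 controls but 3 clones of each deletion. The controls may also share a culture, so their spread may be technical. The higher control exceeded the lower by at most 1.11-fold in any of the 8 genes. The highest ΔE2 clone exceeded the lowest 2.81-fold for STC2 and 1.61-fold for HIF1A, but only 1.14-fold for EGLN1. Within ΔSE12313-b the widest gap was 2.71-fold, for STC1, and EPAS1 was the narrowest at 1.13-fold. ΔE2 replicate 2 was at 95.5% of the control mean for HIF1A, 97.4% for EPAS1 and 97.8% for BNIP3, yet it held the least NDRG1 of all libraries (57.7%). ΔSE12313-b replicate 3 had the most HIF1A (112%) and the least STC2 (45.4%) of its group.

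**Figure D4:**
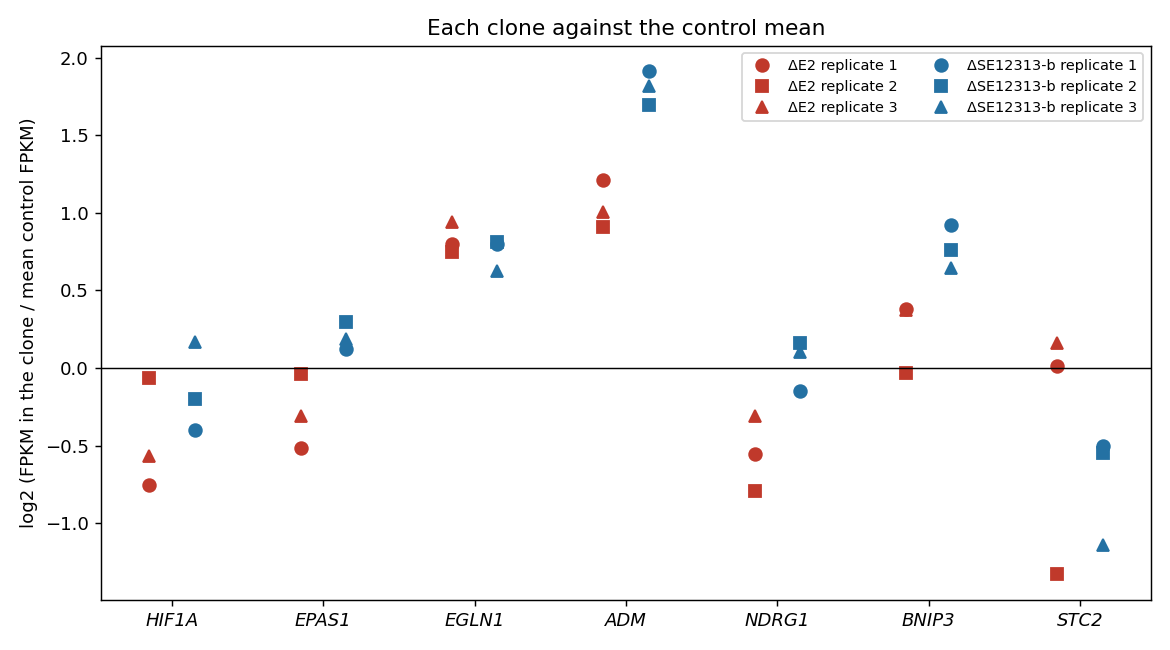
Log2 ratio of each clone's FPKM to the mean of the controls for 7 genes, with ΔE2 in red, ΔSE12313-b in blue and a symbol for each replicate. ΔE2 replicate 2 (red squares) lies near 0 for HIF1A, EPAS1 and BNIP3 and at -1.33 for STC2, while ADM and EGLN1 are above 0 in all 6 clones.

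The machinery of oxygen sensing around HIF was followed with a list of 15 other genes, of which 13 were tested. No gene of it was a DEG upwards, and 2 were DEGs downwards in ΔE2 and 1 in ΔSE12313-b. These shares, 15.4% and 7.69%, lie below the 19.6% and 22.6% of all genes called in either direction, while 8.36% and 7.83% of all genes were DEGs downwards. At an adjusted p under 0.05 by limma with a change of any size, 1 gene was higher and 4 were lower in ΔE2. In ΔSE12313-b 4 were higher and 2 lower. Of all genes, 34.7% were higher and 19.4% lower in ΔE2, and 43% and 16.4% in ΔSE12313-b. CITED2, a HIF target that competes with HIF-1α for the coactivators CBP and p300, fell from 74.6 and 76.1 FPKM to 33.8, 20.3 and 30.9 in ΔE2 (log2 -1.44) and to 35.2, 34.1 and 30.1 in ΔSE12313-b (log2 -1.19). P4HTM, a prolyl hydroxylase of the endoplasmic reticulum membrane, was a DEG in ΔE2 (log2 -1.16, from 5.63 to 2.47 FPKM) and not in ΔSE12313-b (log2 -0.44). The median of the 13 genes was -0.05 in ΔE2 and 0.03 in ΔSE12313-b, below those of all genes. ARNT, the partner of both alpha subunits, stood at 5.95 and 6.11 FPKM in the controls, 4.6, 5.96 and 5.12 in ΔE2 and 5.57, 5.65 and 6.71 in ΔSE12313-b, and VHL at 11.7 in both controls and 7.45 to 10.9 in the clones. HIF3A had at most 0.0900 FPKM and ARNT2 at most 0.0670 in any library. EGLN2, a relative of EGLN1 and EGLN3, was higher in both deletions, under the 2-fold limit. Its log2 values were 0.39 in ΔE2 (limma adjusted p = 0.0119) and 0.95 in ΔSE12313-b (limma adjusted p = 0.000118). The direct comparison of ΔE2 with ΔSE12313-b gave -0.56 for EGLN2 (limma adjusted p = 0.00383).

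HIF targets outside glycolysis moved both ways. Of 34 listed genes 29 were tested, and 2 were DEGs upwards and 7 downwards in ΔE2, 3 upwards and 5 downwards in ΔSE12313-b. The shares called, 31.0% and 27.6%, stand beside 19.6% (11.2% upwards and 8.36% downwards) and 22.6% (14.7% and 7.83%) of all genes. Upwards, the transferrin receptor TFRC rose from 14.0 FPKM to 77.2 and 66.3 (log2 2.42 and 2.19) and the heme oxygenase HMOX1 from 8.08 to 17.4 and 23.7 (log2 1.09 and 1.53). CA12, a membrane carbonic anhydrase like CA9, rose in ΔSE12313-b (log2 1.5) and stood at log2 0.38 in ΔE2. Downwards, DDIT4, an inhibitor of mTORC1, fell from 30.3 FPKM to 2.89 and 5.47 (log2 -3.45 and -2.47), and the angiogenic factor VEGFA from 24.7 to 4.09 and 3.32 (log2 -2.57 and -2.88). MXI1, an antagonist of MYC, was a DEG in ΔE2 (log2 -1.73) and not in ΔSE12313-b (log2 -0.92), and the clock repressor BHLHE40 was a DEG in both (log2 -1.45 and -1.61). DDIT4 and MXI1 lie on 10q, the arm of BNIP3, whose median was 0.18 in ΔE2 and 0.75 in ΔSE12313-b. The median of the 29 was 0.05 in ΔE2 and -0.11 in ΔSE12313-b. Between the deletions 3 genes were DEGs, each lower in ΔE2, among them ZNF395 (log2 -1.57) and CA12 (log2 -1.12). This share, 10.3%, stands beside 4.23% of all genes, 1.6% higher in ΔE2 and 2.63% lower.

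Glycolytic HIF targets were mostly higher. Of 22 genes 21 were tested, with 6 DEGs upwards and 2 downwards in ΔE2 and 10 upwards and none downwards in ΔSE12313-b. The shares called were 38.1% and 47.6%, beside 19.6% (11.2% upwards and 8.36% downwards) and 22.6% (14.7% and 7.83%) of all genes. The medians were 0.65 and 0.97, beside 0.14 and 0.27 for all genes, and with the libraries centred 6 of the 21 were DEGs in ΔSE12313-b. LDHA, which turns pyruvate into lactate, rose from 106 FPKM to 485 and 387 (log2 2.19 and 1.87), and GPI from 33.4 to 83.5 and 102 (log2 1.32 and 1.61). PKM (log2 1.39 and 1.34) and PGAM1 (log2 1.26 and 1.87) were also DEGs in both. PGAM1 and HK1 of this list lie on 10q, the arm of BNIP3, whose median was 0.75 in ΔSE12313-b. Against this direction the glucose transporter SLC2A3 (log2 -1.97) and the enolase ENO2 (log2 -1.63) fell in ΔE2, and both were also lower there than in ΔSE12313-b (log2 -1.08 and -1.72). In ΔSE12313-b SLC2A3 was lower than the control as well, under the 2-fold limit (log2 -0.89, limma adjusted p = 0.000360), and ENO2 stood at 0.09.

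**Figure D5:**
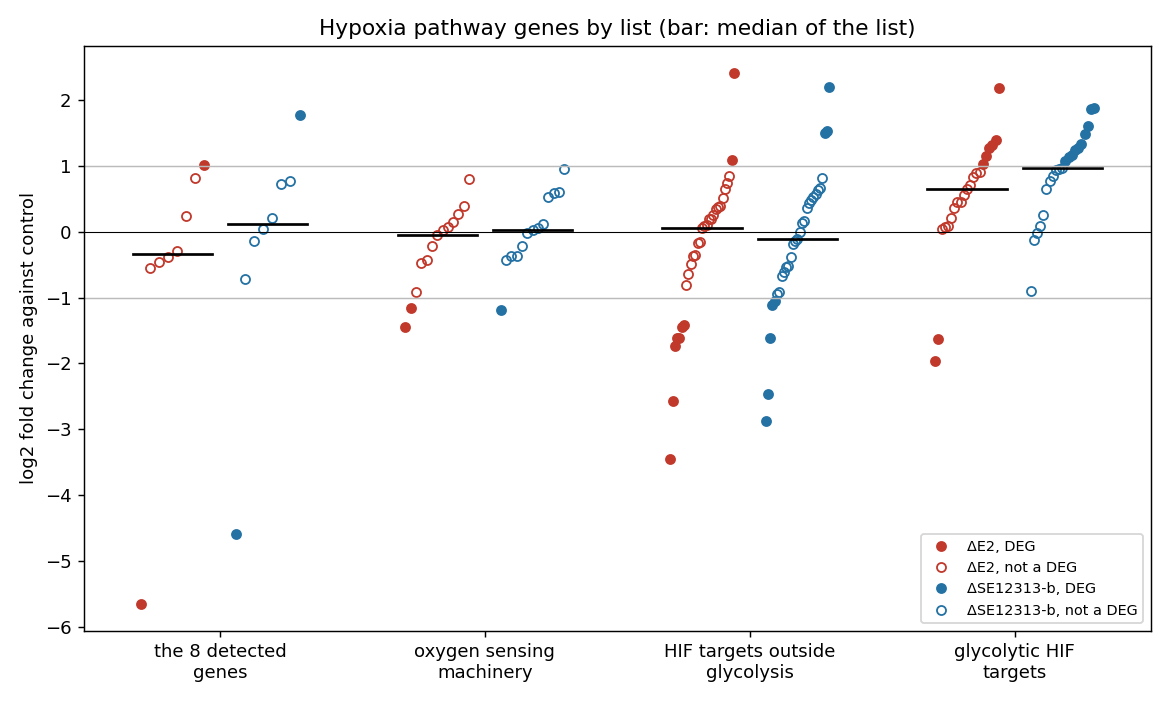
Log2 fold change against the control for the 8 detected genes and 3 lists of the HIF pathway (columns), ΔE2 in red and ΔSE12313-b in blue. Each point is a gene, filled where it was a DEG, and black bars are list medians. Glycolytic targets lie mostly above 0 (medians 0.65 and 0.97), and the other targets spread from DDIT4 at -3.45 to TFRC at 2.42 in ΔE2.

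The receptor pair of adrenomedullin was thin. Adrenomedullin signals through CALCRL, which needs a RAMP protein as partner, and the 3 RAMP genes were at 0 in every library, as was the scavenging receptor ACKR3. CALCRL had 6.02 and 5.24 FPKM in the controls, 0.145, 2.62 and 0.0840 in ΔE2 and 1.44, 1.01 and 4.70 in ΔSE12313-b. All clones were below both controls, but ΔE2 replicate 2 and ΔSE12313-b replicate 3 kept far more than the other clones of their groups. It was a DEG in ΔE2 (log2 -3.52, standard error 1.12) and not in ΔSE12313-b (log2 -1.5). PAM, the enzyme that amidates adrenomedullin to its active form, fell in ΔE2 (log2 -1.25, from 23.9 to 10.1 FPKM) and stood at log2 -0.50 in ΔSE12313-b. ADM5, a relative of ADM, was a DEG downwards in ΔSE12313-b (log2 -1.21) and stood at log2 -0.92 in ΔE2. CRCP, also listed with this system, stood higher in every clone than in both controls. It had 12.33 and 11.65 FPKM in the controls and was no DEG. The ΔE2 clones had 20.85, 21.86 and 24.41 FPKM and the ΔSE12313-b clones 25.04, 21.64 and 21.96. Of 11 genes of this system 4 were tested. Between the deletions 0 of them were DEGs, where 4.23% of all genes were, and the ranges of the deletions overlapped for CALCRL and ADM5.

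Relatives of the other targets were followed in the same way. Of NDRG2, NDRG3 and NDRG4, NDRG3 rose in both deletions, from 7.47 FPKM to 17.7 and 18.7 (log2 1.23 and 1.31), opposite to NDRG1 in ΔE2. BNIP3L (NIX), the paralog of BNIP3 with the same role in mitophagy, had 46.4 and 48.2 FPKM in the controls and 23.5 to 28.2 in the 6 clones, with log2 values of -0.81 and -0.94 (limma adjusted p = 6.32e-05 and 2.25e-05), under the 2-fold limit. The other 9 mitophagy genes tested held no DEG either. Of 14 further carbonic anhydrases only 4 were tested. CA11, which lacks the enzymatic activity of the family, was a DEG in ΔE2 (log2 -1.99) and not in ΔSE12313-b (log2 -1.11). The ranges of the deletions overlapped for CA11, and it was no DEG between them. CA12 is given above.

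PAPPA2, a protease of insulin-like growth factor binding proteins that stanniocalcins inhibit, had 19.4 FPKM in both controls, 3.68, 3.29 and 3.91 in ΔE2 and 3.65, 3.58 and 2.71 in ΔSE12313-b. The 6 clones lay close together, log2 -2.39 and -2.53 below the control. PAPPA itself stood at log2 -0.57 in ΔE2 and -0.17 in ΔSE12313-b, and was no DEG. Its substrate IGFBP4 had 23.2 to 25.9 FPKM in the controls and 27.6 to 63.6 in the clones, without a DEG call. IGFBP2 and IGFBP5 were at 0 in all libraries.

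The genes whose pattern over the 8 libraries was most like that of a member were found by the distance between their log2 values, each gene centred on its own mean. For STC1 these were FER1L6 (distance 0.919), MMP10 (1.16) and IL1B (1.75), against a median distance of 6.79 over all genes tested. FER1L6 had 3.998 and 4.055 FPKM in the controls and at most 0.272 in the clones. MMP10 had 18.7 and 18.3 in the controls and 0.06 to 0.167 in the ΔE2 clones. Such levels are near the 0.1 added before the log, which therefore weighs on both distances. IL1B had 158 and 163 FPKM in the controls and 2.76 to 3.65 in the ΔE2 clones. For EPAS1 they were ATP6V0A2 (0.149), MEF2A (0.176) and SH3PXD2B (0.195), with a median of 1.13. For STC2 they were LOC101929709 (0.610), FOSL1 (0.643) and IL12A (0.658), with a median of 1.93, and FOSL1 shared the low value of ΔE2 replicate 2, 54.1 FPKM beside 125 and 111 in the other ΔE2 clones. These distances are descriptions over 8 libraries that share their groups.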

How the data were processed

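RNA of 8 EA.hy926 libraries was analysed. Per the labels and methods, reads were trimmed (Trim Galore 0.4.4) and mapped to GRCh37 (STAR 2.5.4b) by the authors, and the deposited table holds FPKM for 65572 RefSeq transcripts. The tool, the RefSeq release and the use of strand behind it are not given in the sources used here. Since the values are FPKM, edgeR was not used. Values times length gave whole reads (within 0.1 read) for at least 99.985% of the values checked, used only for depth, limits and 1 alternative. Genes at 0.5 FPKM or more in 2 or more libraries were tested on log2(FPKM + 0.1), which understates changes of low genes, with limma 3.58.1 in R 4.3.3 (3 groups in 1 model, trend, two-sided, Benjamini-Hochberg over 13789 genes). The steps were tested on simulated data. The genes and lists were chosen with earlier results of these data known. All 10 genes are described. Of each list up to 3 DEGs per direction and deletion with the largest change are named, up to 2 between the deletions, and the 3 genes nearest to STC1, STC2 and EPAS1. ARNT, VHL, HIF3A, ARNT2, EGLN2, BNIP3L, PAPPA, IGFBP4, CRCP, HK1 and genes at 0 were named after their values were seen. Alternatives were other pseudocounts (0.01 and 1), filters, scalings, transcripts, priors, voom, a replicate block and leaving out each library.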

Additional observations from a re-analysis of the deposited data

Results flagged for a closer look

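In 4 of the 8 genes, STC1 counted among the 8, the effects of the deletions differed by the direct test of ΔE2 against ΔSE12313-b. The threshold was an adjusted p under 0.05 by limma, which 26% of all genes tested passed, 19.3% being lower in ΔE2. All 4 were lower in ΔE2. EPAS1 differed by -0.49 on the log2 scale, with every ΔE2 clone below and every ΔSE12313-b clone above both controls. ADM differed by -0.75, being above the controls in all 6 clones and most in ΔSE12313-b. NDRG1 differed by -0.59, with every ΔE2 clone below both controls and the ΔSE12313-b clones on both sides of them. BNIP3 differed by -0.53, and the median of its chromosome arm 10q differed by -0.45. The median of all genes tested was -0.11 in this comparison. With each library centred on the median gene, EPAS1 (-0.36, limma adjusted p = 0.0587) and BNIP3 (-0.40, limma adjusted p = 0.0569) missed the threshold, so that 2 of the 4 were left, and EPAS1 then stood below the control in ΔSE12313-b too (-0.09). EPAS1 passed in 15 of 19 alternatives (limma adjusted p up to 0.0815) and BNIP3 in 17 (up to 0.0615).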

How the results depend on the processing

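Of 19 alternatives, each changing 1 choice, the rise of ADM in ΔSE12313-b and the rises of EGLN1 kept their direction and their side of the DEG rule in all. The changes of HIF1A, EPAS1 and STC2 against the control did not pass an adjusted p of 0.05, and leaving out ΔE2 replicate 2 or quantile normalization carried each across it in at least 1 deletion. The cause of the shifts below was not tested.

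ADM was the only higher gene in ΔE2, and the count became 0 with a pseudocount of 1, with centred libraries and with quantile normalization (0 to 1 over libraries left out). Lower genes in ΔSE12313-b, STC1 included, became 2 with quantile normalization, through STC2 (-1.11), and lower genes in ΔE2 against ΔSE12313-b 1 with voom (0 to 1). Reversed were EPAS1 in ΔSE12313-b (-0.086 centred, -0.24 quantile), NDRG1 in ΔSE12313-b (-0.25 centred, -0.40 quantile, -0.022 without ΔSE12313-b replicate 2 in a range of -0.022 to 0.13 over libraries left out), BNIP3 in ΔE2 (-0.057 quantile) and STC2 in ΔE2 (0.089 without ΔE2 replicate 2, in a range of -0.65 to 0.089), none of which was a DEG. Of these only NDRG1 under quantile normalization passed an adjusted p of 0.05 (0.0449 by limma).

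All DEGs with a pseudocount of 1 numbered 1718 in ΔE2 (653 lower), 2004 in ΔSE12313-b (593 lower) and 240 between the deletions (100 higher, 140 lower), against 2697, 3112 and 583. A mean FPKM of at least 1 left 673 lower in ΔSE12313-b. Centred libraries gave 1170 higher and 1464 lower in ΔE2 (1544 and 1153 uncentred), 1201 and 1570 in ΔSE12313-b (2032 and 1080), and 287 and 244 between the deletions (221 and 362).

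The oxygen sensing list held 1 DEG in ΔE2 with a pseudocount of 1, and 1 to 2 in ΔSE12313-b and 0 to 1 between the deletions over libraries left out. The glycolytic list held 5 DEGs in ΔE2 with quantile normalization, 6 in ΔSE12313-b centred, and between the deletions 1 centred, 1 with quantile normalization and 1 to 2 over libraries left out. The other targets held, between the deletions, 0 with a pseudocount of 1, 1 centred, 1 with quantile normalization and 1 to 4 over libraries left out.

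Samples with the same replicate number did not deviate together (r = 0.107, -0.080 and -0.073 between ΔE2 and ΔSE12313-b), so the numbers were not taken as pairs. With a replicate block, 2530, 2962 and 523 genes were DEGs, NDRG1 in ΔSE12313-b turned to -0.037, and no other call on the 10 genes changed.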

Other observations

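Several genes of the followed lists singled out the same clones as the stanniocalcins, ΔE2 replicate 2 and ΔSE12313-b replicate 3, and they were picked after their values were seen. NDRG4, the NDRG gene typical of brain and heart, had 13.1 and 12.8 FPKM in the controls and 11.3, 25.2 and 11.6 in ΔE2, and 18.1, 16.7 and 33.8 in ΔSE12313-b. IGFBP4 had 37.4, 63.6 and 39.6 FPKM in ΔE2 and 33.1, 27.6 and 50.6 in ΔSE12313-b. CA11 had 9.93 and 9.77 in the controls, 2.34, 4.11 and 1.44 in ΔE2 and 4.24, 2.95 and 7.35 in ΔSE12313-b. LOX, the collagen cross-linking enzyme, went the other way, with 19.1, 10.4 and 21.4 FPKM in ΔE2 and 12.3, 15.2 and 4.49 in ΔSE12313-b. Endothelial markers also differed in these clones. CDH5 had 102 and 103 FPKM in the controls, 72.5, 141 and 83.8 in ΔE2 and 74.8, 64.3 and 92.8 in ΔSE12313-b. ESAM had 48.5, 78.1 and 51.2 (ΔE2) and 34.6, 30.4 and 48.9 (ΔSE12313-b), and TEK 10.8, 19.1 and 12.6 (ΔE2) and 10.4, 8.46 and 14.1 (ΔSE12313-b). The part of this in the values of the stanniocalcins was not tested. Over all genes tested the deviations of these 2 clones from their group means had a correlation of 0.137 across genes. This was the highest of the 9 pairs of a ΔE2 with a ΔSE12313-b clone. The next were close, at 0.110 (ΔE2 replicate 3 with ΔSE12313-b replicate 2) and 0.107 (replicate 1 of both). The pair was picked after its values were seen and genes are not independent replicates, so the correlation does not set these clones apart.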
